A study of Mus musculus with 9 samples.

Results

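Collagens and the enzymes that process them were followed in mouse fibroblasts after transduction with an shRNA against 1 of 2 E2 enzymes of the NEDD8 pathway. The members were a fixed set of 31 genes, of which 7 encode fibrillar collagen chains, 6 basement membrane chains, 8 other chains and 10 processing enzymes. They were chosen by name, out of 18193 genes with a probe set that the annotation assigns to a single gene. A probe set of this kind was found for 30 of the 31, all except Adamts2, and 25 of these were bright enough to be tested.

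All samples were NIH 3T3 cells, an established mouse embryonic fibroblast line, which the growth labels describe as expressing Ube2f. No source used here says whether an added construct is meant. The cells received a retroviral vector carrying a control shRNA, an shRNA against Ube2m or an shRNA against Ube2f, and RNA was taken 5 days later. Each of the 3 groups had 3 biological replicates, so 9 arrays were compared, and the number of different hairpins per target is not given. Ube2m and Ube2f encode E2 enzymes that carry NEDD8, a ubiquitin-like protein, to the cullin subunits of ubiquitin ligases, and the comparison asks how the loss of either one alters gene expression. In these bulk samples, fewer cells that express a gene and less RNA per cell cannot be told apart.

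Collagens are trimers of chains wound into a triple helix. Fibrillar chains such as those of types I, III, V and XI are made as procollagens and assemble into the fibrils of connective tissue, type IV chains form the network of basement membranes, and type VI chains form beaded microfilaments. In the endoplasmic reticulum, lysyl hydroxylases, prolyl 3-hydroxylation proteins, galactosyltransferases and the chaperone encoded by Serpinh1 act on the new chains, and outside the cell the Bmp1 proteinase and its enhancer Pcolce help to remove the C-terminal propeptide. Fibroblasts are a main source of these proteins in connective tissue.

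Promoter sequence is shown for 4 members whose signals differed between groups (Col5a1, Col11a1, Col8a1 and Col6a1) and for Col1a2, a fibrillar chain for which no difference passed the test. The sequences are RefSeq's on GRCm38.p6, 5′ to 3′ on the strand of the gene, within the 150 bases before the start site, and only bases before every annotated start of that gene are printed. Capitals mark a GC box (GGGCGG) or a CCAAT box (CCAAT) on either strand.
Col5a1, chr2:27886275-27886380, plus strand: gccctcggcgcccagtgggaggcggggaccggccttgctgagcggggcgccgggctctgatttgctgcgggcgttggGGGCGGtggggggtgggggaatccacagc
Col11a1, chr3:114030390-114030478, plus strand: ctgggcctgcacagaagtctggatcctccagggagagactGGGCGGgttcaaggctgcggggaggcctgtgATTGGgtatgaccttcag
Col8a1, chr16:57754738-57754887, minus strand: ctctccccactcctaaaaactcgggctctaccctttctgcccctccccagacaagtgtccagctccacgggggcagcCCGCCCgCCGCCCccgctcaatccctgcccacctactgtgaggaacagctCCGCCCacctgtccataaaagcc
Col6a1, chr10:76726045-76726194, minus strand: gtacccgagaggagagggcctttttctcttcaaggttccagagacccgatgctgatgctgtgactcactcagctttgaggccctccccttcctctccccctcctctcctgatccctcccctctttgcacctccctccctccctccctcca
Col1a2, chr6:4505468-4505617, plus strand: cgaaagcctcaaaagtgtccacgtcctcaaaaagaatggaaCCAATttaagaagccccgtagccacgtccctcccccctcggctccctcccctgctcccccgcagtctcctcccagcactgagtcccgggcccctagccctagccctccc

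RefSeq promoters were matched for 25 of the 31 members, 28 promoters in all, and Bmp1, Col12a1, Col1a1, Col5a2, Col14a1 and Plod2 had no entry. Within 150 bases before the start, GGGCGG on either strand was found in 16 of the 28 (57.1%), against 28.6% of 32851 mouse promoters. CCAAT was found in 5 of the 28 (17.9%), those of Col1a2, Col4a1, Col4a2, Col11a1 and Col16a1, against 24.5% of all promoters. TATAAA was found in 2 of the 28 (7.14%), against 7.57%. The start sites of Col4a1 and Col4a2 lie 21 bases apart on opposite strands. Transcripts from these annotated starts overlap, with no gap between them, and the window of each gene lies downstream of the other gene's start. The 2 windows share 0 bases. Each holds a CCAAT match of its own, starting at position -145 from the Col4a1 start and -32 from the Col4a2 start. These matches describe letters only. GC boxes were present both in Col5a1, whose signal fell after Ube2m shRNA, and in Serpinh1, for which no difference passed the test.

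Expression was read as MAS5 signal, the linear brightness of a probe set after background and mismatch correction, and each gene was represented by its brightest probe set. Fold changes are differences of log2(signal + 16), which understate changes of dim genes, and adjusted p values are those of limma over all 10613 genes whose mean log2 value reached 6.12, a signal of 53.8. The 9 arrays had been scaled to the same trimmed mean signal of 500, and their median signals ranged from 53.1 to 73.2, with the highest value of each group on replicate 3. The β-actin 3′ to 5′ signal ratio, a measure of RNA quality, was 1.82 on control replicate 1 and 1.24 to 1.35 on the other 8 arrays. The brightest Ube2f probe set averaged 2539 ± 199 (SD, n = 3) with control shRNA, 2956 ± 229 with Ube2m shRNA and 132 ± 13.2 with Ube2f shRNA, which was 5.21% of control. No probe set was assigned to Ube2m alone, so the depletion of Ube2m could not be checked on these arrays. Of 8 fibroblast markers, 7 were tested. The summed signal of all 8 was 80502 to 98705 with control, 75422 to 86922 with Ube2m and 88764 to 103074 with Ube2f shRNA. Vim, S100a4 and Fn1 made up most of these sums. None of 7 endothelial markers averaged above the filter level (signals of 1.3 to 66.2).

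Among the 25 members tested, the changes after Ube2m shRNA were decreases and involved 3 collagen chains. Col5a1 fell to 71.9% of control, Col11a1 to 61.3% and Col8a1 to 60.7%. These 3 of 25 (12%) compare with 9.71% of all 10613 genes tested, with 6.12% for decreases and 3.59% for increases, by limma at an adjusted p under 0.05. The median log2 fold change of the members was -0.20 against -0.04 for all genes tested. Values of the 3 control and 3 Ube2m arrays did not overlap for 10 of the 25 members (40%), and for 29.7% of all genes. With arrays centred on the median of the genes tested, the members' median was -0.12, and the genes that passed split into 534 higher and 432 lower rather than 381 and 650.

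After Ube2f shRNA, 1 of the 25 members rose (4%), Col6a2, to 127% of control, and none fell. The split was not stable to scaling: with arrays centred on the median of the genes tested, or of all probe sets, none rose and 1 fell, Col4a2 (adjusted p = 0.0479 and 0.0374). Without control replicate 2, Col4a1 and Col4a2 fell (0.0332 and 0.0411) and none rose, and without Ube2f replicate 3, Col4a2 and Col12a1 fell (0.011 and 0.0482) and none rose. Of all genes tested, 5.19% passed in this comparison, 2.23% as increases and 2.96% as decreases. The median log2 fold change of the members was 0.01, the same as for all genes, and the arrays did not overlap for 5 of 25 members (20%), against 23.2% of all genes. At an unadjusted p under 0.05, limma called 8 members in this comparison. The share of all genes at that unadjusted cut was not counted, so the 8 cannot be set against the 5.19%. The same limit holds for the other counts at an unadjusted p given below.

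Set directly against each other, the Ube2m and Ube2f groups differed in 7 of the 25 members (28%), against 15.8% of all genes. With Ube2m shRNA, 6 members were lower than with Ube2f shRNA (Col5a1, Col6a1, Col6a2, Pcolce, Bmp1 and Colgalt1), where decreases made up 9.38% of all genes, and Col12a1 was higher, where increases made up 6.37%. The members' median was -0.20 against -0.04 for all genes, and the groups did not overlap for 10 of 25 (40%), against 34.4%. With arrays centred on the median of the genes tested, the split of all genes was 856 higher and 745 lower rather than 676 and 996. Between these 2 groups, arrays with the same replicate number deviated together, and with that number as a block 10 members passed: the 7 above, Col4a1, Col4a2 and Col8a1. More of all genes also passed with the block, as counted further on, so the 15.8% is not the share to set beside these 10. The 3 comparisons share arrays in pairs, so their results are given side by side and not as independent evidence.

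**Figure D1:**
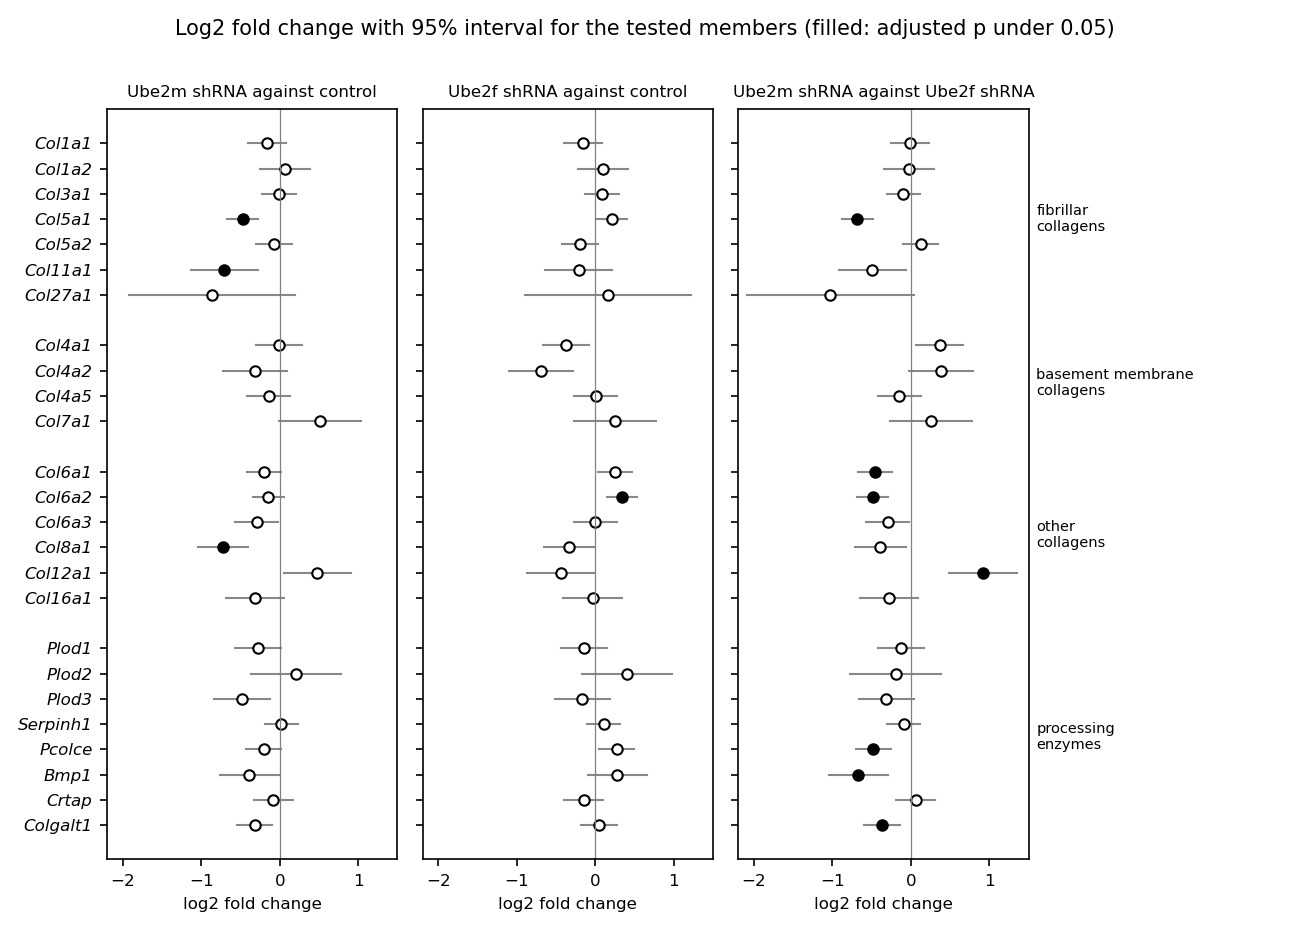
Log2 fold changes of the 25 tested members, grouped as fibrillar, basement membrane and other collagens and processing enzymes, in the 3 comparisons. Horizontal axis, log2 fold change of signal + 16; points, limma estimates; bars, 95% intervals; filled points, adjusted p under 0.05. Filled points are Col5a1, Col11a1 and Col8a1 in Ube2m against control, Col6a2 in Ube2f against control, and 7 members in Ube2m against Ube2f.

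All 7 fibrillar chains were tested. After Ube2m shRNA 2 of the 7 fell (28.6%, against 9.71% of all genes tested). After Ube2f shRNA none passed (1 at an unadjusted p under 0.05), against 5.19% of all genes. Between the 2 hairpin groups 1 of the 7 differed (14.3%, against 15.8%). The major chains of type I and III collagen had high signals on every array and no difference that passed the test.

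Col5a1 encodes the α1 chain of type V collagen, which takes part in starting fibrils and limiting their width. Its signal on control replicates 1 to 3 was 6800, 6328 and 6394, with Ube2m shRNA 4746, 4623 and 4653, and with Ube2f shRNA 7618, 7026 and 7962. All Ube2m arrays lay below all control arrays, and all Ube2f arrays lay above them. Group means were 6507 ± 256, 4674 ± 64 and 7535 ± 474 (SD, n = 3 each). The log2 fold change for Ube2m against control was -0.48 (SE 0.09, adjusted p = 0.00731), and it passed in all 9 fits that left out 1 array. The increase with Ube2f shRNA, 0.21 (SE 0.09, adjusted p = 0.218), did not pass. Between Ube2m and Ube2f the log2 difference was -0.69 (SE 0.09, adjusted p = 0.000356). When all probe sets of the gene were averaged, this difference was -0.38 (adjusted p = 0.1).

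Col11a1 encodes the α1 chain of type XI collagen, a partner of cartilage fibrils that can also join type V chains. Control replicates gave 777, 637 and 451, Ube2m replicates 339, 328 and 442, and Ube2f replicates 566, 434 and 577. The control arrays were spread widely, and the lowest of them (451) was close to the highest Ube2m array (442). Means were 622 ± 164 for control, 369 ± 62.8 for Ube2m and 526 ± 79.7 for Ube2f (SD, n = 3). The log2 fold change after Ube2m shRNA was -0.71 (SE 0.20, adjusted p = 0.042). It was -1.04 over replicates 1 and 2 and -0.03 in replicate 3. The call was lost without control replicate 1 (adjusted p = 0.17), control replicate 2 (0.105), Ube2m replicate 1 (0.138), Ube2m replicate 2 (0.151) or Ube2f replicate 1 (0.0611). It was also lost with averaged probe sets (0.145), no filter (0.0723), arrays centred on the genes tested (0.0513) or only the 2 groups in the fit (0.0544).

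Col1a1 encodes the α1 chain of type I collagen, the main fibrillar collagen of skin and bone. Its signals were 19217, 15526 and 19393 with control, 15988, 15825 and 16381 with Ube2m and 15611, 15097 and 17839 with Ube2f shRNA. The 3 groups overlapped. The log2 fold change was -0.16 after Ube2m shRNA (95% interval -0.40 to 0.08) and -0.15 after Ube2f shRNA (-0.39 to 0.09).

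Its partner Col1a2, the α2 chain, had signals of 24454, 21076 and 29545 with control, 26966, 28304 and 23167 with Ube2m and 23033, 31497 and 25709 with Ube2f shRNA. These ranges also overlapped, and the spread within each group was larger than the difference of the means. The log2 fold changes were 0.07 (-0.25 to 0.39) and 0.10 (-0.22 to 0.42).

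Col3a1, the chain of type III collagen, gave 18080, 14820 and 16009 with control, 16379, 16588 and 15425 with Ube2m and 17336, 17327 and 16993 with Ube2f shRNA. Control arrays spanned the values of both other groups. Its log2 fold changes were -0.01 (-0.22 to 0.20) and 0.08 (-0.13 to 0.30).

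Col5a2 encodes the α2 chain that pairs with Col5a1 in type V collagen. The control arrays read 20068, 17598 and 21029, the Ube2m arrays 19252, 19655 and 16844, and the Ube2f arrays 16518, 17928 and 16643. Overlap was again present in every comparison. The log2 fold changes were -0.07 (-0.30 to 0.15) after Ube2m shRNA and -0.20 (-0.42 to 0.03) after Ube2f shRNA. A second, dimmer Col5a2 probe set went the other way with Ube2m shRNA, as described with the probe sets further on.

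Col27a1, a fibrillar chain of developing cartilage, was near the low end of the range tested. Its signals were 90.0, 151 and 126 with control, 58.2, 21.1 and 135 with Ube2m and 61.8, 160 and 240 with Ube2f shRNA. All groups overlapped. The log2 fold change after Ube2m shRNA was -0.86, with a 95% interval from -1.93 to 0.20, and after Ube2f shRNA 0.16 (-0.90 to 1.23).

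**Figure D2:**
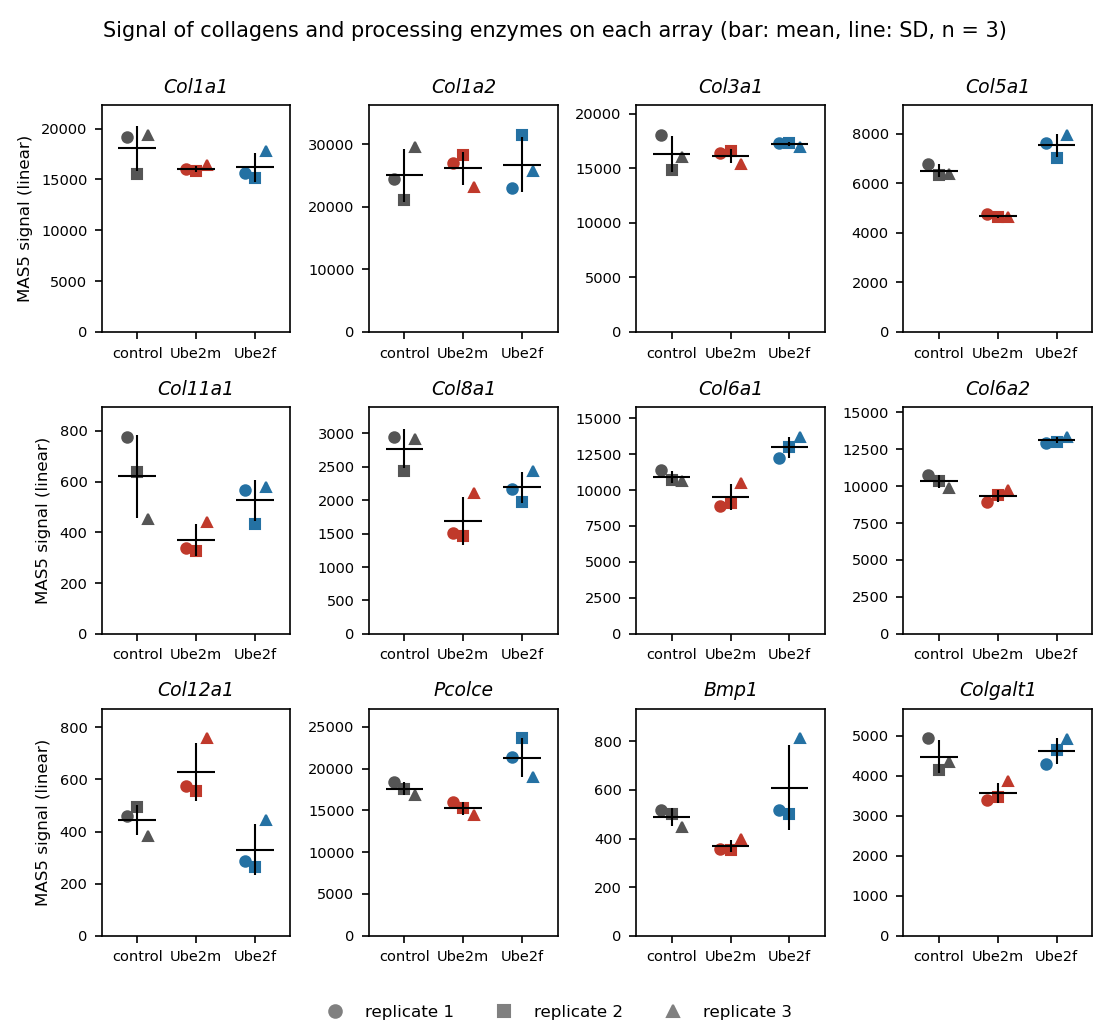
Signal of named members on each of the 9 arrays. Vertical axis, MAS5 signal on a linear scale from 0; points, arrays, with the marker showing the replicate number; horizontal bar, mean; vertical line, SD (n = 3). For Col5a1 the Ube2m arrays (4623 to 4746) sit below the control arrays (6328 to 6800), and for Col6a2 the Ube2f arrays (12944 to 13347) sit above all others.

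Of the 6 basement membrane chains, 4 were tested and none passed limma's adjusted threshold in any of the 3 comparisons as fitted without a block. Of all genes tested, 9.71%, 5.19% and 15.8% passed. With only 4 genes tested, the absence of calls cannot be told from those shares. At an unadjusted p under 0.05 there were 0 for Ube2m against control, 2 for Ube2f against control and 1 for Ube2m against Ube2f. Col15a1 and Col18a1, which encode chains with a C-terminal endostatin-type domain, averaged below the filter level with signals of 2.1 to 83.6. The 4 tested were Col4a1, Col4a2, Col4a5 and Col7a1, and the most negative value among them was that of Col4a2 after Ube2f shRNA.

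Col4a1 and Col4a2 encode the chains of the common type IV network. Col4a2 read 8011, 5968 and 7971 on control arrays, 5113, 5260 and 7371 on Ube2m arrays and 4116, 3683 and 5895 on Ube2f arrays. All 3 Ube2f arrays lay below all control arrays, the closest pair being 5895 and 5968. The log2 fold change after Ube2f shRNA was -0.70 (SE 0.19, adjusted p = 0.0535), which missed the threshold. It passed with either centring of the arrays, with the replicate block (0.0017) and with replicates 1 and 2 only (0.00181). It also passed in 3 of the 9 fits without 1 array: without control replicate 2 (0.0411), Ube2m replicate 3 (0.0309) or Ube2f replicate 3 (0.011). The brightest probe set of Col4a1 was at -0.38 (SE 0.14, adjusted p = 0.132) after Ube2f shRNA, with overlapping arrays. A dimmer Col4a1 probe set, tested on its own by limma, was at -0.64 (adjusted p = 0.0789). Its Ube2f arrays (2199 to 3351) lay below its control arrays (3505 to 4970). After Ube2m shRNA the values were -0.01 for Col4a1 (adjusted p = 0.967, and -0.29 with 0.381 for the dimmer probe set) and -0.31 for Col4a2 (adjusted p = 0.336). Between Ube2m and Ube2f they were 0.36 for Col4a1 (adjusted p = 0.0913, 0.0417 with the replicate block) and 0.38 for Col4a2 (adjusted p = 0.207, 0.0231 with the block). Col7a1, which encodes the anchoring fibril collagen of skin, had the most positive value after Ube2m shRNA, 0.51 (adjusted p = 0.213), at signals of 78.9 to 179.

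Of the 8 other collagens, 6 were tested. After Ube2m shRNA 1 fell (Col8a1), after Ube2f shRNA 1 rose (Col6a2), and 3 differed between the hairpin groups (Col6a1, Col6a2 and Col12a1). These were 16.7%, 16.7% and 50% of the 6, against 9.71%, 5.19% and 15.8% of all genes tested. Col8a2 and Col14a1 averaged below the filter level, with signals of 1.2 to 67.2.

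Col8a1 encodes a short-chain collagen found beneath endothelia and in vessel walls. Control replicates gave 2952, 2431 and 2920, Ube2m replicates 1505, 1458 and 2109, and Ube2f replicates 2162, 1979 and 2440. Ube2m arrays lay below all control arrays, and the Ube2f arrays overlapped both groups. Means were 2768 ± 292, 1691 ± 363 and 2193 ± 232 (SD, n = 3). The log2 fold change after Ube2m shRNA was -0.72 (SE 0.15, adjusted p = 0.0105). The call was lost without control replicate 1 (0.0528), Ube2m replicate 1 (0.0538) or Ube2m replicate 2 (0.0595). After Ube2f shRNA the log2 value was -0.33 (adjusted p = 0.228). In Ube2m against Ube2f it was -0.39 (adjusted p = 0.101, 0.0129 with the replicate block).

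Type VI collagen is built from the chains of Col6a1, Col6a2 and Col6a3. The signal of Col6a2 was 10759, 10346 and 9865 with control, 8889, 9407 and 9704 with Ube2m and 12944, 13013 and 13347 with Ube2f shRNA. The 3 groups did not overlap, with Ube2m lowest and Ube2f highest. Ube2f shRNA raised Col6a2 by 0.34 on the log2 scale (SE 0.09, adjusted p = 0.0443). This call was near the threshold and was lost in 8 of the 9 fits without 1 array (adjusted p from 0.0726 to 0.161), the exception being the fit without Ube2m replicate 3. It was also lost with averaged probe sets (0.288), no filter (0.102), arrays centred on the genes tested (0.0506) and only the 2 groups in the fit (0.101). Between Ube2m and Ube2f the log2 difference was -0.49 (SE 0.09, adjusted p = 0.00283), and this passed without any 1 array.

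Col6a1 gave 11373, 10692 and 10632 on control arrays, 8863, 9112 and 10518 on Ube2m arrays and 12244, 12999 and 13713 on Ube2f arrays. The order of the groups was the same as for Col6a2, with no overlap, although control replicate 3 and Ube2m replicate 3 were close. Ube2m against Ube2f differed by -0.45 on the log2 scale (SE 0.10, adjusted p = 0.00845) and passed without any 1 array. Neither hairpin differed from control at the threshold, at -0.20 (adjusted p = 0.235) for Ube2m and 0.25 (adjusted p = 0.175) for Ube2f. Col6a3 had no difference that passed, with a Ube2m against Ube2f value of -0.29 (adjusted p = 0.147).

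Col12a1 encodes a chain of type XII collagen, which sits on the surface of type I fibrils. It read 458, 495 and 381 with control, 574, 556 and 758 with Ube2m and 285, 263 and 444 with Ube2f shRNA. Ube2m arrays lay above all others, and the Ube2f arrays overlapped control through replicate 3. The Ube2m against Ube2f difference was 0.92 on the log2 scale (SE 0.20, adjusted p = 0.00747). It passed without any 1 array, and averaging its 4 probe sets reduced it to 0.35 (adjusted p = 0.372). That average took in untested probe sets under the filter level, at signals of 1.7 to 36.0. The other tested probe set was at 0.52 (adjusted p = 0.339). Against control the values were 0.48 (adjusted p = 0.153) for Ube2m and -0.44 (adjusted p = 0.232) for Ube2f.

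Of the 10 processing genes, 9 had a probe set and 8 were tested. None passed against control with either hairpin (3 with Ube2m and 1 with Ube2f shRNA at an unadjusted p under 0.05). At the adjusted threshold, 9.71% and 5.19% of all genes tested passed in these comparisons. Lower with Ube2m than with Ube2f shRNA were 3 of the 8 (Pcolce, Bmp1 and Colgalt1). That was 37.5%, against 15.8% of all genes called in that comparison. Pcolce2 averaged below the filter level at 1.0 to 28.1.

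Pcolce encodes the enhancer of procollagen C-proteinase. Its signal was 18389, 17579 and 16794 with control, 15974, 15254 and 14483 with Ube2m and 21405, 23602 and 18938 with Ube2f shRNA. The 3 groups did not overlap, with Ube2m lowest and Ube2f highest. The Ube2m against Ube2f difference was -0.48 on the log2 scale (SE 0.10, adjusted p = 0.00777), and it passed without any 1 array. Against control the values were -0.21 (adjusted p = 0.244) and 0.27 (adjusted p = 0.159). On the second, dimmer Pcolce probe set the Ube2f arrays (5923 to 6510) lay within the control range (5404 to 8415). Its value after Ube2f shRNA was -0.04 (adjusted p = 0.925 by limma). With averaged probe sets the Ube2m value against control was -0.43 and passed (adjusted p = 0.0489 by limma).

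Bmp1 encodes the proteinase that Pcolce enhances. Control arrays read 517, 499.7 and 448, Ube2m arrays 356, 353 and 396, and Ube2f arrays 517, 500.4 and 812. The Ube2m arrays were the lowest, and Ube2f replicates 1 and 2 were close to control while replicate 3 was higher. The Ube2m against Ube2f difference was -0.67 on the log2 scale (SE 0.17, adjusted p = 0.0203). It was lost without Ube2m replicate 1 (0.0673), Ube2m replicate 2 (0.0735) or Ube2f replicate 3 (0.054), and with averaged probe sets (0.121). The average took in an untested probe set under the filter level, at signals of 4.0 to 33.4.

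Colgalt1 encodes a galactosyltransferase that modifies hydroxylysine. It gave 4933, 4154 and 4354 with control, 3396, 3469 and 3867 with Ube2m and 4291, 4643 and 4921 with Ube2f shRNA. The Ube2m arrays lay below all others, which overlapped. The difference between the hairpin groups was -0.37 (SE 0.11, adjusted p = 0.0323). That call was lost without either of Ube2m replicates 1 (0.129) and 2 (0.119) or any of the Ube2f replicates (0.0532 to 0.0814), and with arrays centred on the genes tested (0.0665). Against control the Ube2m value was -0.32 (adjusted p = 0.074).

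The chaperone gene Serpinh1, whose product holds the collagen triple helix in the endoplasmic reticulum, was flat, with log2 values of 0.02 (95% interval -0.19 to 0.23) after Ube2m shRNA and 0.10 (-0.11 to 0.31) after Ube2f shRNA. The lysyl hydroxylase gene Plod3 had the most negative Ube2m value of the class, -0.48 (adjusted p = 0.0835), with control arrays of 2064 to 3361 and Ube2m arrays of 1699 to 2051. Plod2, another lysyl hydroxylase gene, had the most positive values of the class, 0.20 (adjusted p = 0.699) after Ube2m and 0.40 (adjusted p = 0.434) after Ube2f shRNA. Its replicate 3 arrays, 2368 with Ube2m and 2400 with Ube2f shRNA, were far above the other 4 hairpin arrays (1135 to 1432). Plod1 and Crtap had no difference that passed.

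Centring the arrays on the median of all probe sets, most of which are dim, is a scaling added after the data were seen. It kept the sign of all 11 calls above and ended 6 of them: Col5a1 in Ube2m against control (adjusted p = 0.0751), Col6a2 in Ube2f against control (0.548), and Col6a1 (0.118), Col6a2 (0.108), Pcolce (0.212) and Colgalt1 (0.175) in Ube2m against Ube2f.

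The members were represented by 57 probe sets, of which 46 passed the filter when each probe set was tested on its own, another choice made after the data were seen. In Ube2m against control, 4 member probe sets were lower and 1 higher, against 5.37% of 19684 probe sets called. In Ube2f against control none of the 46 passed (9 at an unadjusted p under 0.05), where 3.39% of all did. In Ube2m against Ube2f, 9 were lower and 1 higher (10.8% of all). Of 18 members with several tested probe sets, the probe sets had opposite signs for 6 members in Ube2m against control, 8 in Ube2f against control and none in Ube2m against Ube2f.

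For Pcolce, the second probe set was lower after Ube2m shRNA at -0.65 (adjusted p = 0.0284), where the brighter one was at -0.21, and both were lower than with Ube2f shRNA. Second probe sets also passed in Ube2m against Ube2f for Bmp1 at -1.02 (adjusted p = 0.00689) and Colgalt1 at -0.51 (adjusted p = 0.0117). For Col8a1, a dimmer probe set fell by 0.97 after Ube2m shRNA (adjusted p = 0.0492). Col5a1 had 3 tested probe sets, all negative after Ube2m shRNA, and only the brightest passed. They were at -0.48 (adjusted p = 0.0114), -0.67 (0.0846) and -0.42 (0.145). With Ube2f shRNA the brightest was at 0.21 and the others at -0.42 and -0.22. In Ube2m against Ube2f the brightest was at -0.69 (adjusted p = 0.000695) and the others at -0.25 (0.518) and -0.20 (0.489). For Col5a2, the brightest probe set was at -0.07 and the dimmer one rose by 0.51 after Ube2m shRNA (adjusted p = 0.0223).

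**Figure D3:**
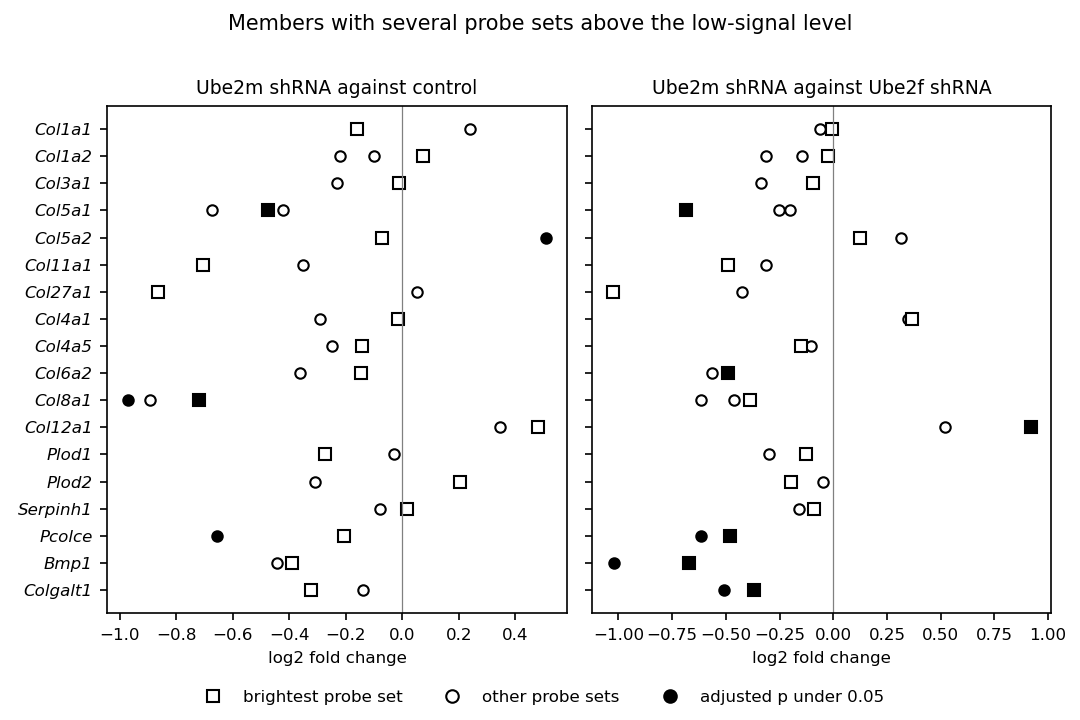
Log2 fold changes of individual probe sets for the 18 members with several, in Ube2m against control and Ube2m against Ube2f. Horizontal axis, log2 fold change of signal + 16; squares, the brightest probe set of a gene; circles, its other probe sets; filled, adjusted p under 0.05. The probe sets of Col5a2 lie on opposite sides of 0 in Ube2m against control, at -0.07 and 0.51.

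Genes that act on collagen but are not members were described from separate lists. Of 22 further synthesis genes, 14 were tested. After Ube2m shRNA 3 rose and 2 fell, and after Ube2f shRNA 3 rose and none fell. Between the hairpin groups 1 was higher and 2 lower with Ube2m shRNA. These calls were 35.7%, 21.4% and 21.4% of the 14, against 9.71%, 5.19% and 15.8% of all genes tested. P4ha2, a catalytic subunit of prolyl 4-hydroxylase, rose by 0.45 (adjusted p = 0.0205) with Ube2m and 0.57 (adjusted p = 0.00947) with Ube2f shRNA. Its signal was 1408 to 1644 with control, 1956 to 2175 with Ube2m and 2113 to 2417 with Ube2f shRNA.

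P3h1, a prolyl 3-hydroxylase that works with Crtap, rose by 0.50 (adjusted p = 0.0329) and 0.75 (adjusted p = 0.00702). Sec24d, a coat protein of vesicles that carry procollagen, rose by 0.53 (adjusted p = 0.00581) and 0.41 (adjusted p = 0.0292). P3h4, a partner of lysyl hydroxylase 1, fell by 0.69 after Ube2m shRNA (adjusted p = 0.00212), from 3035 to 3772 on control arrays to 2027 to 2085. In Ube2m against Ube2f it was at -0.48 (adjusted p = 0.0101). The P4ha2 call with Ube2m shRNA was lost without control replicate 2 (0.0607), Ube2m replicate 1 (0.099) or Ube2m replicate 2 (0.074). The P3h1 call with Ube2m shRNA was lost without control replicate 2 or 3 or any Ube2m replicate (0.0739 to 0.109), and averaging its probe sets ended both P3h1 calls (0.247 and 0.0734). The Sec24d call with Ube2f shRNA was lost without any control replicate, Ube2m replicate 1 or 2, or Ube2f replicate 1 or 2 (0.0518 to 0.0983). P3h3 and Creb3l1, named here after their values were seen, were the other genes that passed, P3h3 at -0.66 (adjusted p = 0.0226) in Ube2m against control and -0.67 (adjusted p = 0.0129) in Ube2m against Ube2f, and Creb3l1 at 0.76 (adjusted p = 0.0263) in Ube2m against Ube2f. P3h3 is a prolyl 3-hydroxylase family member and Creb3l1 a transcription factor that activates collagen genes. P3h3 lost its call against control without control replicate 1 or 2 or Ube2m replicate 1 or 2 (0.0558 to 0.0942) and against Ube2f without Ube2m replicate 1 (0.0564), and Creb3l1 without Ube2m replicate 1 or 3 or Ube2f replicate 1 or 2 (0.0517 to 0.111).

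All 5 cross-linking enzymes with a probe set were tested. After Ube2m shRNA 3 fell, after Ube2f shRNA 1 fell, and 1 was lower with Ube2m than with Ube2f shRNA. These were 60%, 20% and 20% of the 5, against 9.71%, 5.19% and 15.8% of all genes tested. Lox encodes lysyl oxidase, which starts the covalent cross-links of collagen and elastin. Its signal was 21776, 19461 and 18899 with control, 13319, 14213 and 12838 with Ube2m and 14247, 14198 and 13684 with Ube2f shRNA. Both hairpin groups lay below all control arrays. Lox fell by 0.57 (adjusted p = 0.00292) and 0.51 (adjusted p = 0.00872) on the log2 scale, and both calls held in all 9 fits without 1 array. Loxl3, a related oxidase, fell by 0.93 after Ube2m shRNA (adjusted p = 0.00854) and was at -0.76 in Ube2m against Ube2f (adjusted p = 0.0139, lost without Ube2m replicate 2 at 0.0627). Loxl1 fell by 0.38 after Ube2m shRNA (adjusted p = 0.0435), a call lost without control replicate 1 or 3, Ube2m replicate 1 or 2, or Ube2f replicate 1 or 2 (0.0523 to 0.177). Tgm2, a transglutaminase, was at -0.23 (adjusted p = 0.441) and -0.48 (adjusted p = 0.127).

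**Figure D4:**
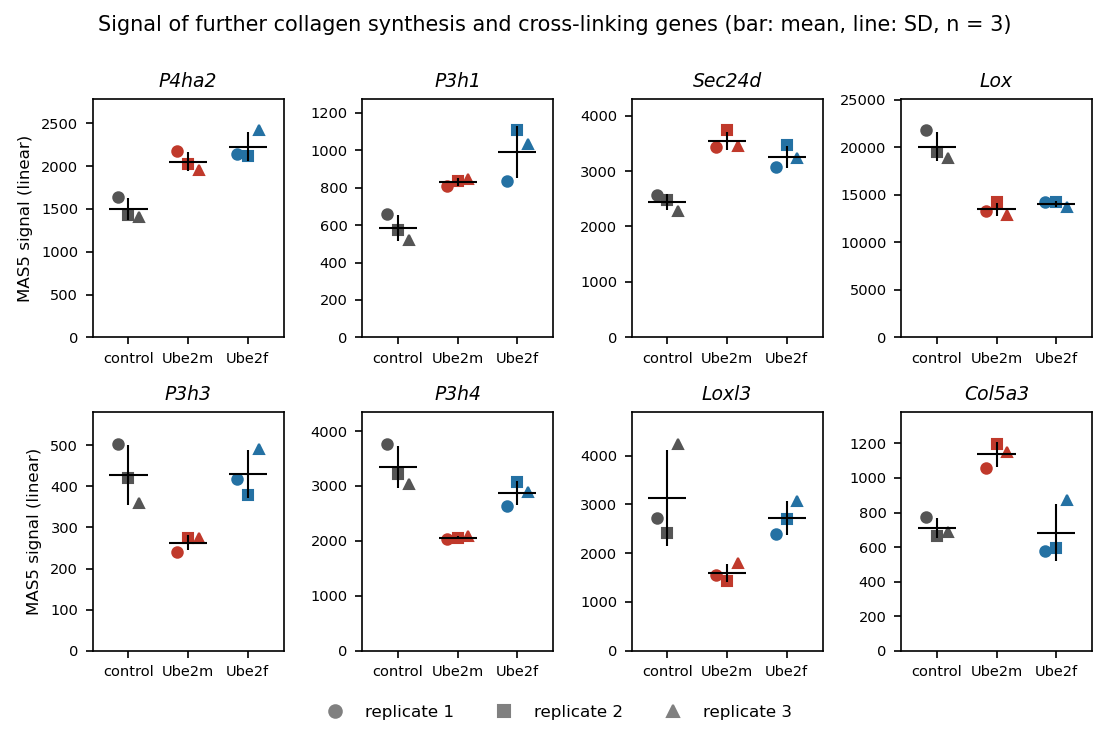
Signal of 8 genes of collagen synthesis and cross-linking that are not members, on each of the 9 arrays. Vertical axis, MAS5 signal on a linear scale from 0; points, arrays; horizontal bar, mean; vertical line, SD (n = 3). Lox arrays of both hairpin groups (12838 to 14247) lie below the control arrays (18899 to 21776), while P4ha2, P3h1 and Sec24d lie above control in both.

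Of 11 collagen receptors and collagen-degrading enzymes, 7 were tested. After Ube2m shRNA 1 fell, after Ube2f shRNA 1 rose, and 3 were lower with Ube2m than with Ube2f shRNA. These were 14.3%, 14.3% and 42.9% of the 7, against 9.71%, 5.19% and 15.8% of all genes tested. Mmp2, a gelatinase gene, fell by 0.68 after Ube2m shRNA (adjusted p = 0.00264). Itga1, a collagen-binding integrin subunit, rose by 0.78 after Ube2f shRNA (adjusted p = 0.0451), which was lost in 8 of the 9 fits without 1 array (0.0501 to 0.138), the exception being the fit without Ube2m replicate 3. In Ube2m against Ube2f, Itga1 was at -1.14 (adjusted p = 0.00238), Mmp2 at -0.49 (adjusted p = 0.01) and Mmp14, a membrane-bound collagenase, at -0.87 (adjusted p = 0.000875). Ddr1, a collagen receptor kinase, was at 0.35 after Ube2m shRNA (adjusted p = 0.0581). Of 23 further collagen chains, 5 were tested, and Col5a3, the third chain of type V collagen, rose by 0.67 after Ube2m shRNA (adjusted p = 0.0176) while Col5a1 fell. That call was lost without control replicate 2 (0.055) or Ube2m replicate 2 (0.0778), and averaging the probe sets of Col5a3 reduced the value to 0.27 (adjusted p = 0.406). Col5a3 was at 0.75 in Ube2m against Ube2f (adjusted p = 0.0057), reduced to 0.36 by averaging (adjusted p = 0.217). No comparison passed for Col22a1, Col4a6 and Col17a1. The Col5a3 call was 20% of the 5 in each of these 2 comparisons, against 9.71% and 15.8% of all genes tested.

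Fibroblast markers also differed between the groups. Of the 7 tested, 2 fell after Ube2m shRNA, 1 rose after Ube2f shRNA, and 4 were lower with Ube2m than with Ube2f shRNA. These were 28.6%, 14.3% and 57.1% of the 7, against 9.71%, 5.19% and 15.8% of all genes tested. Pdgfra, a receptor of fibroblasts, rose by 0.72 after Ube2f shRNA (adjusted p = 0.00997) and was at -0.96 in Ube2m against Ube2f (adjusted p = 0.000578). Thy1, a surface glycoprotein, fell by 0.70 (adjusted p = 0.0163) and Postn, a matrix protein that binds collagen, by 0.74 (adjusted p = 0.0265) after Ube2m shRNA. The Thy1 call was lost without Ube2m replicate 1 (0.0757) or 2 (0.0679), and the Postn call without control replicate 1 (0.105) or 2 (0.0533) or Ube2m replicate 1 (0.116) or 2 (0.0551). In Ube2m against Ube2f they were at -0.67 (adjusted p = 0.0114) and -1.20 (adjusted p = 0.001), and Pdgfrb at -0.51 (adjusted p = 0.00928), with the Thy1 call lost without Ube2m replicate 1 (0.0549). Fap averaged below the filter level at 2.8 to 48.9. The part of these differences in the collagen values was not tested.

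Few markers of other cells were bright enough to be tested, so 1 call is a large share of a list. In Ube2m against control, 1 of 2 chondrocyte and osteoblast markers passed (50%), against 9.71% of all genes tested. In Ube2m against Ube2f, 1 of these 2 (50%), 1 of 3 epithelial (33.3%) and 1 of 3 macrophage markers (33.3%) passed, against 15.8%. None passed in Ube2f against control, where 5.19% of all genes did. Of 8 chondrocyte and osteoblast markers with a probe set, 2 were tested, Sox9 and Sp7, and the other 6 stayed between 0.9 and 99.1. Sox9, a transcription factor that activates cartilage collagen genes, fell by 0.68 after Ube2m shRNA (adjusted p = 0.0296) and was at -0.93 in Ube2m against Ube2f (adjusted p = 0.0035). The first call was lost without control replicate 1 (0.113) or 3 (0.0671) or Ube2m replicate 1 (0.126) or 2 (0.109). The summed signal of this list was 2354 to 2900 with control, 1562 to 2122 with Ube2m and 2639 to 4130 with Ube2f shRNA. Most of it was Sox9, with means of 2483, 1552 and 2996 in these groups. Of 7 epithelial markers, 3 were tested, and Krt14 alone passed, at 0.98 in Ube2m against Ube2f (adjusted p = 0.00599). The summed signals of all 7 were 3239 to 5348, 5787 to 6502 and 2718 to 4180 with control, Ube2m and Ube2f shRNA. Krt14 made up most of these sums, with means of 4214, 5790 and 2983, so they do not describe the whole list. Of 7 macrophage markers, 3 were tested, and Cd14 alone passed, at 0.52 in Ube2m against Ube2f (adjusted p = 0.0294). That call was lost without Ube2m replicate 1 or 2 or any Ube2f replicate (0.05 to 0.121). Sums over all 7 macrophage markers were 895 to 973, 881 to 1096 and 747 to 797 in the same order of groups. Whether other cell types bear on the collagen values was not tested.

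Calls of these further genes depended on the settings as well. Centring on the median of all probe sets ended every call of P4ha2, P3h1, Sec24d, Lox and Loxl1 against control and that of Itga1 after Ube2f shRNA (adjusted p from 0.0731 to 0.416). It also ended, in Ube2m against Ube2f, those of P3h4, Mmp2, Pdgfrb, Thy1, Krt14 and Cd14 (0.0512 to 0.207). Loxl1 and Itga1 also lost their calls against control with no filter (0.0786 and 0.126) and with only the 2 groups in the fit (0.06 and 0.0678), as did Loxl1 with arrays centred on the genes tested (0.113). With averaged probe sets, Itga1 (0.0932) and Pdgfra (0.0503) after Ube2f shRNA and Pdgfrb in Ube2m against Ube2f (0.0935) no longer passed. Sec24d after Ube2f shRNA was lost with only the 2 groups in the fit (0.0811), P3h1 after Ube2m and Itga1 after Ube2f shRNA with replicates 1 and 2 only (0.0813 and 0.0602), and Cd14 with no filter (0.0584).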

How the data were processed

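The deposited values were microarray signal intensity on a linear scale, made by the authors with MAS5 per the submitters' processing notes, with a MAS5 version and genome build not given in the sources used here. Every array had the same 2% trimmed mean of 500. RNA was extracted with Trizol and labelled from total RNA, per the labels' protocols. Of 45101 probe sets, 64 were array controls and were left out of the tests, 34945 had 1 gene symbol, 932 several and 9160 none in GEO's platform annotation, which can be old. Only probe sets with 1 symbol were used.

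The constant 16 was added and log2 taken. Each gene was represented by the probe set with the highest mean, and genes with a mean log2 value of at least 6.12 were kept, which left 10613. One linear model over the 9 arrays was fitted with limma 3.58.1 in R 4.3.3 (lmFit and eBayes with a trend), with 3 comparisons, Benjamini-Hochberg adjustment over all genes of each comparison and a threshold of 0.05. The fit was tested on simulated data. With 3 arrays a side, the smallest two-sided p of an exact permutation test is 0.1, so none is reported. Precision is set by how few arrays there are. Replicates are biological per the labels.

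The members and all other lists were chosen with earlier results of these data known. Values on every array are given for each member past the threshold in any comparison and for every fibrillar collagen tested. Other members are given by counts, ranges and extremes, with Col4a2 added after its values were seen. From each further list up to 4 genes with the smallest p are named. Alternatives were another constant, no filter, averaged probe sets, other centrings, the replicate number as a block and replicates 1 and 2 only. Further ones were 2 groups in the fit, each probe set on its own, and leaving out each array. Averages took in probe sets under the filter level. Replicate numbers were checked for pairing: the deviations of arrays with the same number correlated at -0.00462 to 0.349 between control and either hairpin group, where replicates are not treated as paired, and at 0.201 to 0.557 between Ube2m and Ube2f, where a blocked value is given if it changes a call.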

Additional observations from a re-analysis of the deposited data

How the results depend on the processing

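Over 17 alternatives, the 11 calls of named members kept their direction in all 187 values and stayed past the threshold in 145. In some alternatives the direction could not change, since the fold change stays the same. These were no filter, the replicate block, only the 2 groups in the fit, and leaving out an array of the group not compared. Of the members' counts, 3 in Ube2m against control became 8 with replicates 1 and 2 only. The 1 in Ube2f against control became 0 with no filter (9 members at an unadjusted p under 0.05 by limma), with averaged probe sets (5) and with only the 2 groups in the fit (6), and 4 with replicates 1 and 2 only. With either centring it was 1 again but another gene, Col4a2 lower in place of Col6a2 higher. The 7 in Ube2m against Ube2f became 4 with averaged probe sets, 3 with arrays centred on the median of all probe sets, chosen after seeing the data, and 11 with replicates 1 and 2 only.

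Of all genes, averaging probe sets gave 602, 259 and 1099 calls in the 3 comparisons (1031, 551 and 1672 as reported), and centring on all probe sets 525, 222 and 868. Replicates 1 and 2 only gave 1747 and 1121 against control, and the 2 groups alone 350 for Ube2f. The causes were not tested.

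Leaving out each array gave 1 to 3, 0 to 2 and 5 to 9 members, and 388 to 1177, 195 to 583 and 1017 to 1813 genes. In Ube2m against control, 1 member was left without control replicate 1 or Ube2m replicate 1 or 2, with 472, 443 and 388 genes. In Ube2f against control, omitting control replicate 1 gave 281 genes, and omitting Ube2f replicate 1 or 2 gave 195 or 342. In Ube2m against Ube2f they were 1063 and 1017 without Ube2m replicates 1 and 2 and 1018 without Ube2f replicate 1.

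With the replicate number as a block, 5 members passed in Ube2m against control and 3 in Ube2f against control (1 higher, 2 lower). In Ube2m against Ube2f 10 passed (3 higher, 7 lower). Of the 10613 genes tested, 1866, 1225 and 2493 passed in the 3 comparisons, against 1031, 551 and 1672 without the block. The block added Colgalt1 (adjusted p = 0.033 by limma) and Plod3 (0.0396) as lower in Ube2m against control. In Ube2f against control it added Col4a2 (0.0017) and Col8a1 (0.047), also lower. Against control, arrays of the same number correlated at -0.00462 (Ube2m) and 0.0148 (Ube2f) for replicate 1. For replicate 2 these values were 0.185 and 0.157, and for replicate 3 they were 0.317 and 0.349. The replicate 3 values exceeded those between Ube2m and Ube2f for replicates 1 and 2 (0.201 and 0.211). Of the 9 arrays, 4 correlated best with an array of their own number, and only between Ube2m and Ube2f did all 3 pairs correlate over 0.1, which is a hint from the data and not part of the design.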

Other observations

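The brightest Plod2 probe set had its highest signals on replicate 3 of both hairpin groups, 2368 with Ube2m and 2400 with Ube2f shRNA, where control replicate 3 read 1424. The other Plod2 probe set was at -0.31 in Ube2m against control (adjusted p = 0.285) and -0.26 in Ube2f against control (adjusted p = 0.412), while the brightest was at 0.20 and 0.40.

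For Col1a1, the second probe set was at 0.24 in Ube2m against control (adjusted p = 0.52) and 0.30 in Ube2f against control (adjusted p = 0.441), opposite in sign to the brightest at -0.16 and -0.15. None of these differences passed the threshold.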
